A study of Mus musculus with 42 samples.

Results

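The hepatic growth hormone axis was followed through 8 genes of the 54532 in the read count table, each taken by its gene name: Ghr, Igf1, Igfals, Socs2, Cish, Bcl6, Mup3 and Mup20. All 8 were read in 32 of the 42 libraries, the ones in which albumin (Alb), the most abundant secreted product of hepatocytes, exceeded 10000 CPM (a gene's reads scaled to the library's total). All 8 passed the filter of a mean count of at least 25 over these liver libraries, with a lowest count of 64, for Cish.

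The mice were female weanlings, C57BL/6 per the labels and C57BL/6NHsd per the study's methods, 3 weeks old at the start and 6 weeks old at collection, with no transgene or deletion. Feeding lasted 3 weeks. The standard diet was AIN93G, in which soybean oil gave 16% of energy, and the high-fat diet (HFD) was the same formulation modified so that this oil gave 45%. Livers were collected every 4 h, and times are zeitgeber times (ZT), with lights on from ZT 0 to ZT 12 in a cycle of 12 h of light and 12 h of dark. The liver libraries comprised 13 from AIN93G (3 at each of ZT 0, 4, 8 and 12, and 1 at ZT 24) and 19 from HFD (3 at each of ZT 0, 4, 8, 12, 16 and 20, and 1 at ZT 24). Each library was made from a liver RNA extraction. Whether any extraction pooled mice was not given in the sources used here, so p-values measure the spread between these libraries. Numbers in the sample titles, whose meaning the labels do not give, recur across times within a diet for 8 of 32 numbers, and 0 recur across diets.

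Total counts of the liver libraries ran from 14592481 to 19815356, and Alb from 66434 to 111995 CPM. The other 10 libraries, also labelled liver, were all those of AIN93G at ZT 16 and ZT 20 and 2 of each diet at ZT 24. Their Alb was 18.7 to 81.0 CPM, and their summed adipocyte markers were 11619 to 21321 CPM, against 6.57 to 52.5 CPM in the liver libraries. The time course of AIN93G therefore stops at ZT 12 apart from 1 library at ZT 24. The ZT 12 libraries carried mixed phase labels (4 dark, 2 light) and mixed clock states. Dbp, a clock output gene, stood at 102, 0.36 and 0.13 CPM in the 3 AIN93G livers of ZT 12 and at 62.5, 79.8 and 0.13 CPM in the 3 HFD livers, against 0.25 to 0.84 CPM at ZT 0 and 97.3 to 176 CPM at ZT 8 over both diets. In the 2 livers of ZT 24 it was 155 CPM (AIN93G) and 68.6 CPM (HFD), far from its level at ZT 0. Each of these 2 is alone in its group and leaves no residual in the fits, and they enter the ranges, the filter on counts, the scaling and the gene profiles over 32 livers. Values of the members that rest on ZT 12 are therefore also given without it where the result changes, and counts over all genes without it are given in the last section.

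Growth hormone from the pituitary binds its receptor, Ghr, on hepatocytes, and the kinase JAK2 then activates the transcription factor STAT5. STAT5 raises Igf1, the circulating growth factor, and Igfals, the subunit that holds IGF-1 in a long-lived complex in blood, together with Socs2 and Cish, which feed back on the receptor. Bcl6 is a transcriptional repressor that STAT5 lowers and that occupies many of the same sites. The major urinary proteins (MUPs) are small secreted carriers of pheromones made in liver, and their level in mice depends on growth hormone and on its pulsatile, male-type secretion, while female livers hold less of most of them.

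The members lie on 6 chromosomes in mm10. Ghr is on chromosome 15 (3317760 to 3583492), Igf1 on chromosome 10 (87858265 to 87937042) and Igfals on chromosome 17 (24878770 to 24882008). Socs2 is also on chromosome 10 (95385362 to 95417180), Cish on chromosome 9 (107296026 to 107302784) and Bcl6 on chromosome 16 (23965052 to 23988852). Mup3 (62083476 to 62087342) and Mup20 (62050234 to 62054158) are neighbours in the MUP cluster of chromosome 4, and all 8 are protein-coding.

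MUP genes are near copies of each other, which bears on how their reads can be counted, so a coding stretch of 60 bases is shown for Mup20, for another member of the cluster (Mup1) and for Mup3. All are spliced coding sequence from the minus strand of GRCm38 (the build of mm10), 5′ to 3′, across an intron. Mup20 is chr4:62053572-62053968, Mup1 is chr4:60501374-60501771 and Mup3 is chr4:62086892-62087141. Capitals mark bases that differ from Mup20.
Mup20: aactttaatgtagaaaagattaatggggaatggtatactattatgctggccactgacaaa
Mup1: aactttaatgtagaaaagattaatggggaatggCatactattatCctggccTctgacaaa
Mup3: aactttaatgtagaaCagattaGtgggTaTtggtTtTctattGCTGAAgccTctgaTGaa
Mup1 differed from Mup20 at 3 of the 60 bases and Mup3 at 15. The stretch was chosen as the one with most differences from Mup3 among those with at most 15. Mup1 was chosen for its close match there, so these counts do not measure the genes as a whole. Over whole transcripts (GENCODE M21), 13.3% of the 50-base words of Mup3 occurred in a transcript of another gene, mainly Mup21 (10.04%). For Mup20 the share was 50.5%, mainly with the pseudogene Mup-ps19 (48.0%), and no other MUP gene held more than 3.07%. Mup-ps19 had 0 reads in 23 of the 32 liver libraries and at most 6. How reads that match several genes were counted was not given in the sources used here, so a transfer of reads between Mup20 and its copies cannot be told apart from expression. Ghr, Igf1, Igfals and Bcl6 shared no such word with another gene.

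Promoter windows (RefSeq, GRCm38.p6, 250 bases before to 50 after each start site) were in the table for 6 members, in 10 windows. They were searched for TTCNNNGAA, the palindrome that STAT5 and Bcl6 bind, which reads the same on both strands. Cish, Bcl6 and Igfals had a window with it, and the windows of Ghr, Igf1 and Mup3 did not. Of all 32851 windows, 8.3% held at least 1 match and 0.457% at least 2. Stretches of Cish and Bcl6 with matches, in capitals, are shown because these genes varied most among the members with a window. Cish is chr9:107296639-107296688 on the plus strand and Bcl6 is chr16:23981343-23981471 on the minus strand.
Cish: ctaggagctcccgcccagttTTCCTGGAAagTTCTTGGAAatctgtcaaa
Bcl6: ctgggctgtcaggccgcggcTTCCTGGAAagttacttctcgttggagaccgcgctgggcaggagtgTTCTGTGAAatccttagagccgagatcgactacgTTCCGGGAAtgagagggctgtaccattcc
Cish held 2 matches, the first at its start site, and this window of Bcl6 held 3. The other window of Bcl6, at the 5′ end of the gene (chr16:23988803-23989102), held 1 match and is not shown. A match describes the letters and not binding.

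Per kilobase of gene length, Mup3 was by far the most abundant member, with a median of 6525 CPM per kb over the 32 livers. Igf1 (89.4), Mup20 (87.3), Ghr (67.4) and Igfals (66.2 CPM per kb) formed a middle group. Socs2 (4.86), Bcl6 (2.82) and Cish (2.71 CPM per kb) were the lowest. By median per kilobase, the feedback genes and the repressor were thus more than an order of magnitude below the receptor and the secreted factors. In this order of medians the ranges of neighbours overlapped, except between Mup3 and Igf1 and between Igfals and Socs2. The order depends on the deposited gene lengths, such as 9531 bases for Socs2 and 2111 for Igfals, which were not checked against the transcripts expressed in liver. In CPM not divided by length, the medians of Socs2 (46.3), Mup20 (81.0) and Igfals (140) lay closer together.

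The members differed in how much they varied between livers of the same diet and time. Ghr, Igf1, Igfals and Mup3 were steady, and Socs2, Cish, Bcl6 and Mup20 were not. In CPM scaled by edgeR's trimmed mean of M values (TMM), Ghr ran from 492 to 925 over the 32 livers, with a median of 610. Igf1 ran from 696 to 1210 with a median of 885, and Igfals from 97.96 to 207 with a median of 140. Mup3 ran from 4438 to 9484 CPM with a median of 6969. The highest liver was thus no more than 2.14-fold above the lowest for any of these 4 genes.

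Socs2, a brake on growth hormone receptor signalling, ran from 7.57 to 144 CPM with a median of 46.3, a 19.1-fold range. Its lowest value rested on 1 liver (HFD replicate 1 at ZT 8), and the next lowest was 13.8 CPM. Cish, the related early-response feedback gene, ran from 4.17 to 59.3 CPM with a median of 17.4, a 14.2-fold range. Mup20, the MUP known as darcin, ran from 37.9 to 386 CPM with a median of 81.0, a 10.2-fold range. Bcl6 ran from 9.74 to 61.1 CPM with a median of 18.9, a 6.28-fold range. Much of this lay within groups. At ZT 16 the 3 HFD livers had 55.3, 37.9 and 386 CPM of Mup20. At ZT 0 the 3 HFD livers had 24.2, 58.8 and 139 CPM of Socs2. At ZT 12 they had 23.7, 42.5 and 4.17 CPM of Cish. Livers that shared diet and time thus differed by 5.76-fold to 10.2-fold in these examples.

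**Figure D1:**
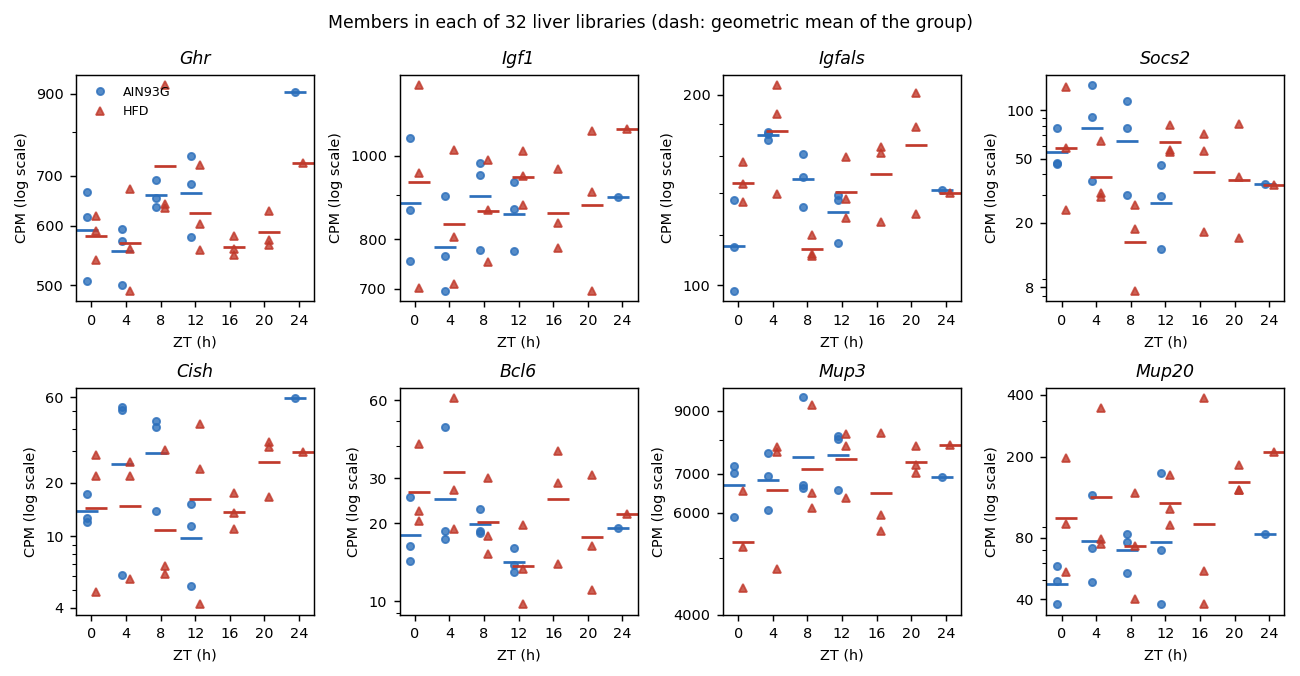
Each panel plots a member's TMM-scaled CPM (log axis) against ZT in hours for all 32 liver libraries, circles for AIN93G and triangles for HFD, with a dash at each group's geometric mean. The axes of Ghr, Igf1, Igfals and Mup3 span about a doubling, while Socs2 spreads from 7.57 to 144 CPM and Mup20 from 37.9 to 386 CPM, and the diets overlap at most times.

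The standard deviation of log2 CPM within groups of the same diet and time (30 libraries in 10 groups) put numbers on this. It was 0.17 for Ghr, 0.19 for Igfals, 0.23 for Igf1 and 0.25 for Mup3, against a median of 0.26 over the 12000 genes tested. It was 0.60 for Bcl6, 0.92 for Socs2, 0.92 for Mup20 and 1.14 for Cish. Of the 12000 genes, 93.1% had a smaller SD than Bcl6, 98% than Socs2, 98% than Mup20 and 98.9% than Cish. Leaving out the HFD liver with 386 CPM of Mup20 (replicate 3 at ZT 16) gave Mup20 an SD of 0.75, a check added after seeing the data.

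**Figure D2:**
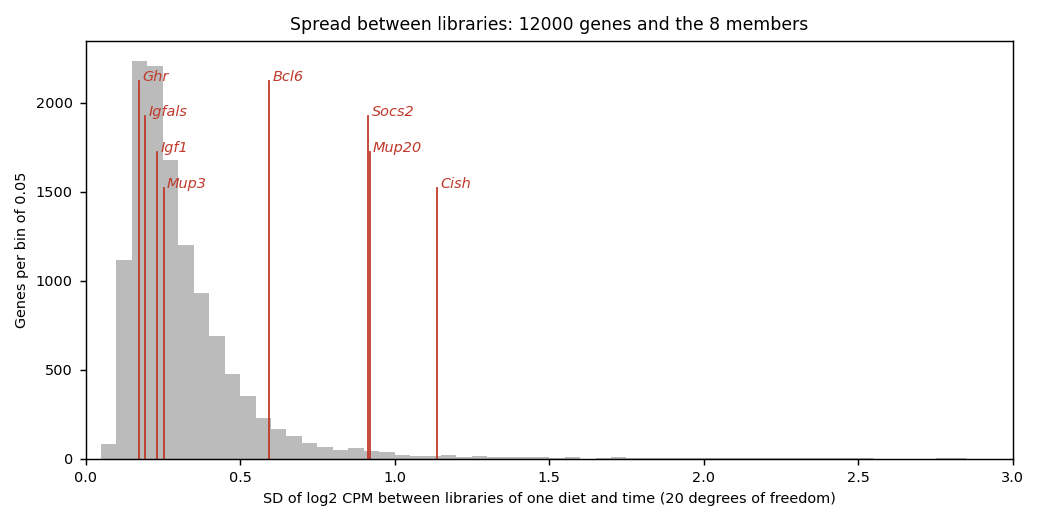
Grey bars count the 12000 tested genes by the SD of log2 CPM between libraries of the same diet and time (x axis, log2 units), and red lines mark the 8 members. Ghr, Igfals, Igf1 and Mup3 lie in the main body of genes at 0.17 to 0.25, and Bcl6, Socs2, Mup20 and Cish lie in its upper tail at 0.60 to 1.14.

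The first question was whether the HFD changed the members in liver. No member passed edgeR's quasi-likelihood test (adjusted p under 0.05) for the mean diet difference over ZT 0 to ZT 12, with 0 of 8 at an unadjusted p under 0.05 and 0 of 8 by DESeq2. The background was low as well, with 0.108% of the 12000 genes called. The receptor and the secreted factors had narrow intervals. The log2 difference of HFD from AIN93G was 0.02 for Ghr (SE 0.07, 95% interval -0.14 to 0.17), 0.07 for Igf1 (SE 0.09, interval -0.12 to 0.27) and 0.03 for Igfals (SE 0.08, interval -0.14 to 0.19). For Mup3 it was -0.11 (SE 0.10, interval -0.32 to 0.11). Differences beyond 1.2-fold in Igf1, or 1.14-fold in Igfals, in the direction of HFD thus lay outside the 95% interval.

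The variable members had wide intervals. Mup20 had a log2 difference of 0.71 (SE 0.35, interval -0.003 to 1.43), or 1.64-fold higher in HFD, with an edgeR adjusted p of 0.594. Its values in AIN93G were 38.1, 49.0 and 58.4 CPM at ZT 0 and 71.6, 48.7 and 130 CPM at ZT 4. In HFD they were 54.7, 196 and 93.3 CPM at ZT 0 and 74.4, 78.8 and 346 CPM at ZT 4. At ZT 8 they were 76.0, 53.9 and 83.4 CPM in AIN93G and 132, 40.4 and 72.7 CPM in HFD. Groups of the 2 diets overlapped at each of ZT 0, 4, 8 and 12. Without the HFD liver of 346 CPM (replicate 3 at ZT 4), the log2 difference of Mup20 was 0.43. Without the filter on low counts the edgeR adjusted p of Mup20 was 0.0186, the 1 alternative in which it passed. Socs2 had -0.43 (interval -1.10 to 0.24), Cish -0.17 (interval -0.96 to 0.61) and Bcl6 0.25 (interval -0.21 to 0.72), and each of these 3 intervals held changes of both signs. With 1 library left out, the log2 difference of Cish ran from -0.46 (without HFD replicate 3 at ZT 8) to -0.048 (without HFD replicate 3 at ZT 12). That of Bcl6 ran from 0.094 (without HFD replicate 3 at ZT 4) to 0.41 (without AIN93G replicate 2 at ZT 4). For Mup3 it was -0.048 without AIN93G replicate 3 at ZT 8, and for Igf1 0.021 without HFD replicate 3 at ZT 0. Without the ZT 12 libraries the log2 difference was -0.94 for Socs2 (adjusted p 0.303) and -0.60 for Cish (adjusted p 0.553).

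At single times the diet differences of the 8 members ran from -2.10 to 1.24 on the log2 scale. None of the 32 passed the test, and 2 had an unadjusted p under 0.05. Of all genes, 0.0167% were called at ZT 8 and 0% at ZT 0, ZT 4 or ZT 12. DESeq2 called 13 genes for ZT 0, none for ZT 4, 30 for ZT 8 and 3 for ZT 12, and edgeR gave 484, 301, 1398 and 896 genes with an unadjusted p under 0.05. Both members with such a p, Socs2 and Igfals, were at ZT 8, where 11.7% of all genes had one. Socs2 was the member with the largest difference. At ZT 8 its values were 78.1, 114 and 29.6 CPM in AIN93G and 7.57, 18.2 and 25.8 CPM in HFD. The groups did not overlap, as for 13% of all genes at ZT 8, and the lowest AIN93G liver stood only slightly above the highest HFD liver. The log2 difference was -2.10 (SE 0.68, interval -3.50 to -0.71), with an edgeR adjusted p of 0.267. Without the filter on low counts the adjusted p was 4.73e-05, with an SE of 0.35 that lay below the 0.75 given by the spread of Socs2 between livers of the same group.

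At ZT 12 the order was the opposite. Socs2 was 29.3, 13.8 and 46.1 CPM in AIN93G and 56.5, 80.7 and 55.4 CPM in HFD, again without overlap (10.2% of all genes at ZT 12), with a log2 difference of 1.11 (SE 0.66, interval -0.24 to 2.46) and an adjusted p of 0.696. Of these 6 livers, 2 of AIN93G and 1 of HFD were those with Dbp no higher than at ZT 0. The part of their clock state in the Socs2 values was not tested. The test of diet by time, which asks whether the diet difference varied among ZT 0, 4, 8 and 12, called 0 of 8 members, with 2 of 8 (Socs2 and Igfals) at an unadjusted p under 0.05. It called 0% of all genes, with 722 at an unadjusted p under 0.05 and 5 called by DESeq2. For Socs2 the adjusted p was 0.794. Cish followed the same order of signs, with log2 differences of 0.40, -1.04, -1.19 and 1.14 at ZT 0, 4, 8 and 12, each with an interval that included 0.

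Igfals at ZT 8 was the other case in which the diets did not overlap, which makes 3 of 32 member and time combinations. No member was without overlap at ZT 0 or ZT 4, against 13.3% and 7.58% of all genes, so the members' share lay near the background. Its values were 161, 148 and 133 CPM in AIN93G and 111, 120 and 112 CPM in HFD. The log2 difference was -0.37 (SE 0.16, interval -0.70 to -0.04), with an adjusted p of 0.376. At ZT 0 the sign was the other way, with 115, 97.96 and 136 CPM in AIN93G and 136, 156 and 144 CPM in HFD, and a log2 difference of 0.32 (interval -0.004 to 0.65).

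**Figure D3:**
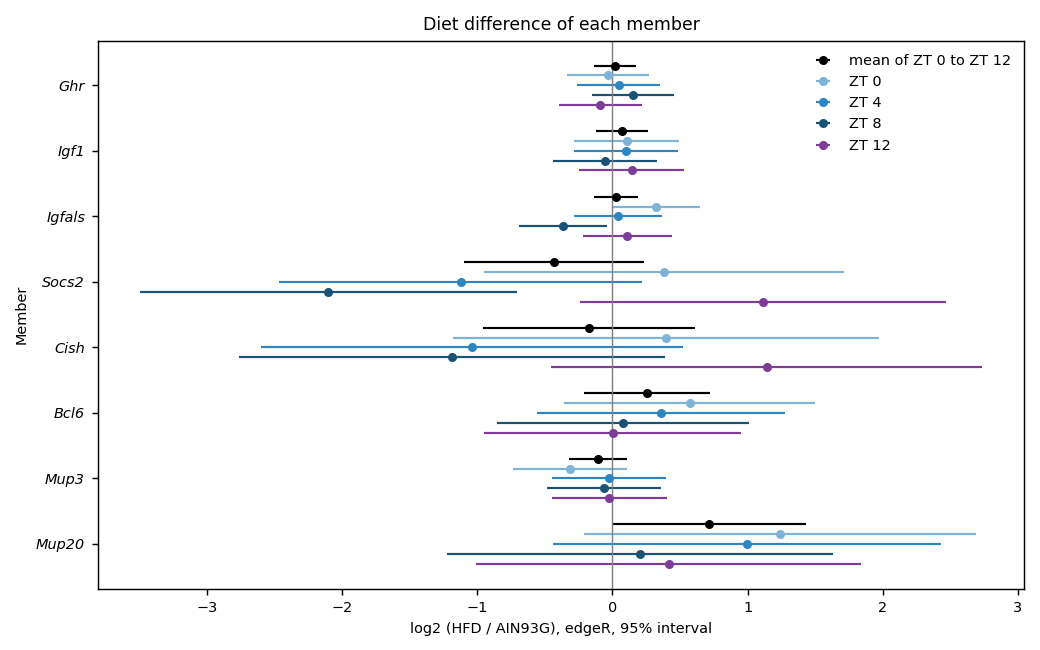
Points give the log2 ratio of HFD to AIN93G (x axis) for each member as the mean over ZT 0 to ZT 12 (black) and at each time (colours), with 95% intervals from edgeR. All intervals of the mean over times include 0. The intervals of Ghr, Igf1, Igfals and Mup3 are short, and those of Socs2, Cish and Mup20 at single times exceed 2 log2 units.

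The next question was whether the members followed time of day. In HFD liver, where ZT 0 to ZT 20 was covered, 0 of 8 members passed the test of any difference among times, 1 (Igfals) had an unadjusted p under 0.05 beside 25.1% of all genes, and DESeq2 called 1 (also Igfals) beside 13.7% of all genes. The edgeR test called 5.28% of all genes, 8 of the 10 clock genes among them. In AIN93G liver, over ZT 0 to ZT 12, it called 0 of 8 members, and 0.758% of all genes. There too 1 member, Igfals, had an unadjusted p under 0.05, beside 10.7% of all genes, and DESeq2 called none.

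Igfals had the lowest adjusted p of the members for time in both diets. Its group means in AIN93G were 116 ± 19.1, 172 ± 2.68, 148 ± 14.1 and 131 ± 12.1 CPM at ZT 0, 4, 8 and 12 (SD, n = 3). In HFD they were 145 ± 10.5, 178 ± 34.6, 114 ± 4.76, 141 ± 16.2, 151 ± 21.9 and 169 ± 36.6 CPM at ZT 0, 4, 8, 12, 16 and 20 (SD, n = 3). Both diets were highest at ZT 4, where the 3 AIN93G livers had 173, 175 and 169 CPM. The means spanned 0.64 log2 units in HFD, with an edgeR adjusted p of 0.0938 and a DESeq2 adjusted p of 0.0307, and 0.57 in AIN93G, with an edgeR adjusted p of 0.257. Without HFD replicate 2 at ZT 20, the edgeR adjusted p in HFD was 0.0456.

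A cosine of 24 h fitted to the 18 HFD livers of ZT 0 to ZT 20 called 8.52% of all genes and 0 of 8 members, with 0 at an unadjusted p under 0.05 and 0 called by DESeq2. Fitted peak-to-trough ratios were 1.03 for Igf1, 1.2 for Ghr, 1.22 for Mup3 and 1.27 for Igfals. For the variable genes they were 1.34 for Cish, 1.41 for Mup20, 1.67 for Bcl6 and 1.89 for Socs2, and none of these 8 passed the test.

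The contrast of ZT 8 with ZT 0 over both diets called the largest share of genes, 11.2%, with all 10 clock genes, and 0 of 8 members (0 by DESeq2). Ghr and Mup3 had an unadjusted p under 0.05, that is 2 of 8 beside 25.1% of all genes, so the members lay at the background. At ZT 0 Ghr was 617, 506 and 665 CPM in AIN93G and 591, 540 and 618 CPM in HFD. At ZT 8 it was 691, 636 and 653 CPM in AIN93G and 633, 642 and 925 CPM in HFD. The livers of ZT 8 were thus higher by mean in both diets, and the log2 difference was 0.24 (SE 0.11, interval 0.02 to 0.46, adjusted p 0.152). Without the HFD liver of 925 CPM (replicate 3 at ZT 8) it was 0.14. For Mup3 it was 0.30 (SE 0.15, interval 0.00 to 0.60, adjusted p 0.194). For Igf1 and Igfals it was -0.06 (interval -0.33 to 0.21) and 0.00 (interval -0.23 to 0.23). The variable members had wider intervals, with -0.86 for Socs2 (interval -1.82 to 0.09, and -0.45 without HFD replicate 3 at ZT 0), 0.45 for Cish (interval -0.66 to 1.55), -0.15 for Bcl6 (interval -0.81 to 0.51) and 0.03 for Mup20 (interval -0.98 to 1.04).

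HFD livers of the night (ZT 16 and 20) were compared with those of the day (ZT 4 and 8). This contrast called 6.88% of all genes and 0 of 8 members, with 0 at an unadjusted p under 0.05 and 0 by DESeq2. Socs2 had a log2 difference of 0.81 (interval -0.14 to 1.77), Mup20 0.42 (interval -0.59 to 1.42), Ghr -0.17 (interval -0.39 to 0.05) and Igf1 0.03 (interval -0.24 to 0.31). The sign for Mup20 rested on the HFD liver of 386 CPM, and without it (replicate 3 at ZT 16) the log2 difference was -0.47. The value of Socs2 was 0.44 without HFD replicate 3 at ZT 20, and that of Ghr -0.07 without HFD replicate 3 at ZT 8.

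Because much of the variation lay between livers of the same group, the members were compared pair by pair across the 30 libraries of complete groups, each value taken as its deviation from its group mean of log2 CPM. Of 28 pairs, 2 passed a permutation test within groups after Benjamini-Hochberg adjustment. The share that would pass among pairs of other liver genes was not computed, so this count has no background beside it. Mup3 and Mup20 rose and fell together, with Pearson r = 0.70 (permutation p = 0.00074, adjusted p = 0.0207) and Spearman rho = 0.68 (permutation p = 0.00252, adjusted p = 0.0353). Their deviations had the same sign in 21 of 30 libraries, and r was 0.68 without the 2 libraries farthest out in Mup3. The HFD livers with most Mup20 for their group, at 386 and 346 CPM, were above their group mean in Mup3 too.

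Igf1 and Socs2 formed the other pair, with r = 0.67 (permutation p = 0.00209, adjusted p = 0.0293) and rho = 0.66 (permutation p = 0.00216, adjusted p = 0.0353). The sign agreed in 25 of 30 libraries, and r was 0.58 without the 2 libraries farthest out in Igf1. In the 3 HFD livers of ZT 0, Igf1 was 702, 956 and 1210 CPM where Socs2 was 24.2, 58.8 and 139 CPM. Without any ZT 12 library the adjusted p of this pair was 0.0531 (r = 0.69), and it was 0.0503 for both pairs when libraries were scaled by total count. Leaving out any 1 of the 6 HFD livers of ZT 0 and ZT 16 ended the call for Mup3 and Mup20, with adjusted p-values of 0.0532 to 0.098 and r of 0.65 to 0.71. For Igf1 and Socs2, 14 of the 30 libraries ended the call when left out, with adjusted p-values up to 0.0896 and r of 0.61 to 0.71. They were AIN93G replicate 3 at ZT 0, replicate 3 at ZT 8 and replicate 2 at ZT 12, all 3 HFD livers of ZT 0 and of ZT 20, and HFD replicates 2 and 3 at ZT 4, replicate 3 at ZT 8 and replicates 1 and 3 at ZT 16.

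**Figure D4:**
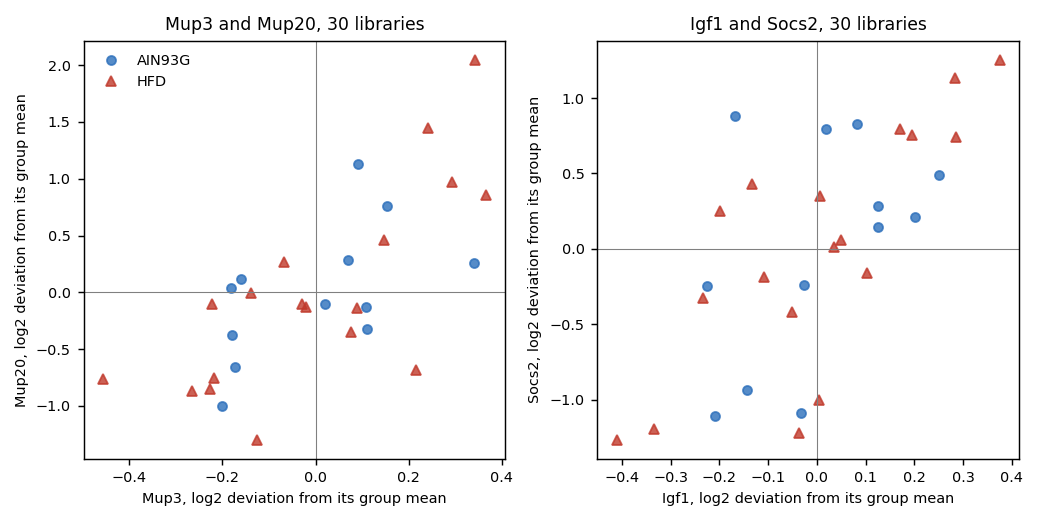
Each point is 1 of 30 liver libraries, placed by its deviation from the mean of its diet and time in log2 CPM, for Mup3 (x) against Mup20 (y) on the left and Igf1 (x) against Socs2 (y) on the right. Points run from lower left to upper right in both panels (r = 0.70 and 0.67), and the y axes span far more than the x axes.

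Other pairs of the axis did not pass. Igf1 and Igfals, which form the circulating complex, had r = 0.58 (adjusted p = 0.0819), and Ghr and Igf1 had r = 0.46 (adjusted p = 0.144). Socs2 and Cish, both feedback genes of STAT5, had r = 0.22 (adjusted p = 0.666), and Igfals and Cish had the lowest r, -0.32 (adjusted p = 0.394).

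Over all 32 livers, the genes with profiles most like each member were as follows, by Pearson r of log2 CPM, as a description. The 32 points share diets, times and libraries. Cish had the highest values, with Phlda1 (r = 0.86) and Foxq1 (0.84), followed by Onecut1 (0.77), a liver transcription factor that growth hormone is known to raise. Mup20 was nearest to Scp2 (0.83), a sterol carrier, Ephx2 (0.77), an epoxide hydrolase, and Cyp2d9 (0.77), a male-biased cytochrome P450. Ghr was nearest to Dsg1c (0.81), Ppp3ca (0.79) and Nfib (0.77), and Socs2 to Slc25a30 (0.74), Ugcg (0.68) and Gm16551 (0.66). Mup3 was nearest to Tpt1 (0.73), Prdx1 (0.71) and Tmco1 (0.71), Igf1 to Tm9sf2 (0.67), Tmed5 (0.64) and Sar1a (0.62), Igfals to Ggact (0.66), BC025446 (0.64) and Camkk2 (0.62), and Bcl6 to Gm6548 (0.68), Mx2 (0.64) and Zfp760 (0.62).

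Other genes of the pathway also showed no diet call. Of 17 listed genes of growth hormone receptor signalling, 16 were tested and 0 were called for diet over ZT 0 to ZT 12, with a median log2 difference of -0.02 against -0.01 over all genes. Between ZT 8 and ZT 0, 3 of the 16 were called, all lower at ZT 8, beside 11.2% of all genes in either direction. Irs2, an adaptor shared with insulin signalling, fell by 1.33 on the log2 scale (SE 0.29, edgeR adjusted p = 0.00507), Stat5a by 0.74 (SE 0.20, adjusted p = 0.016) and Stat5b by 0.48 (SE 0.15, adjusted p = 0.0385). Irs2 also differed among times in HFD liver, by 1.72 log2 units between its highest and lowest time (adjusted p = 0.0417), as 1 of 16 beside 5.28% of all genes. Stat5a and Stat5b were called by the 24 h cosine (adjusted p = 0.0292 and 0.0209), as 2 of 16 beside 8.52%. These shares lie near the background. Over the alternatives run, Irs2 and Stat5a kept their calls between ZT 8 and ZT 0, while Stat5b lost it in 12 of 21 (adjusted p up to 0.101). Irs2 lost its call over times in HFD in 11 of 28 (adjusted p up to 0.154), Stat5a lost its cosine call in 3 of 27 (adjusted p up to 0.0671) and Stat5b in 1 of 27 (adjusted p 0.0533).

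Of 11 listed IGF carriers and receptors, 10 were tested, 0 were called for diet and 2 between ZT 8 and ZT 0, again beside 11.2% of all genes. Igfbp1, a short-lived IGF binding protein that insulin lowers, fell by 2.09 (SE 0.55, adjusted p = 0.0153), and Igfbp4 rose by 0.54 (SE 0.14, adjusted p = 0.0139). The median over the 10 was 0.17 against 0.00 over all genes.

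Sex-biased liver genes are set by the pattern of growth hormone secretion. Of 22 female-biased genes, all tested, and 16 male-biased genes, 12 tested, none was called for diet. At an unadjusted p under 0.05, where 8.39% of all genes lay, there were 8 of the 22 female-biased genes, all lower in HFD (Cyp3a41a, Cyp3a41b, Cyp3a44, Cyp3a16, Sult2a1, Sult2a2, Sult3a1 and Cyp2c40), and 5 of the 12 male-biased genes, all higher (Cyp7b1, Elovl3, C6, Susd4 and Selenbp2), named after their values were seen. Several of these are near copies of each other, and the lists were chosen with earlier results of these data known. These shares therefore describe the lists and cannot test a shift with diet. The median log2 difference of HFD was -0.39 for the female-biased and 0.14 for the male-biased list, against -0.01 over all genes, and 0.48 for the MUP family, of which 1 of 12 had an unadjusted p under 0.05. The medians of the MUP and male-biased lists had the other sign at ZT 8. At ZT 0, 4, 8 and 12 the median was 0.10, 0.95, -0.48 and 1.13 for the MUP family and 0.36, 0.55, -0.29 and 0.47 for the male-biased list, while it was -0.58, -0.54, -0.52 and -0.32 for the female-biased list. The 6 markers of Kupffer cells and macrophages all had higher values in HFD over ZT 0 to ZT 12 (median log2 difference 0.30, from 0.14 for Clec4f to 0.77 for Marco), with 1 of 6 (Cd5l) at an unadjusted p under 0.05 and 0 called. At ZT 0, where 4 of 6 had such a p and 0 were called, their sum was 943, 483 and 478 CPM in HFD and 350, 441 and 399 CPM in AIN93G. A single HFD liver, replicate 1, thus stood apart, with 139 CPM of Marco against 10.94 and 12.7 CPM in the other HFD livers of ZT 0. Without it, 0 of 6 markers had an unadjusted p under 0.05 in either comparison, and their median log2 difference was 0.17 over ZT 0 to ZT 12. Without it the median of the female-biased list was -0.52 (8 of 22 at an unadjusted p under 0.05), that of the male-biased list 0.22 (5 of 12) and that of the MUP family 0.58 (3 of 12). The liver farthest out in these lists was another one, HFD replicate 3 at ZT 4. Its female-biased genes summed to 1396 CPM, against at least 3008 CPM in the other livers of ZT 0 to ZT 12. Its MUP sum, 11105 CPM, was the highest of all livers. The part of that liver in the list medians and counts was not tested. Over time, Ntrk2 rose between ZT 0 and ZT 8 (log2 difference 1.59, SE 0.52, adjusted p = 0.0484, and 2.46 without HFD replicate 1 at ZT 0) and Abcd2 was lower in HFD at night (-0.91, SE 0.24, adjusted p = 0.0209), both of the female-biased list. These were 1 of its 22 genes beside 11.2% of all genes, and 1 of 22 beside 6.88%. Cyp2a4 and Fmo2 of the same list were called by the cosine in HFD (adjusted p = 0.034 and 0.0182), which makes 2 of 22 beside 8.52%. Of the alternatives run, Ntrk2 lost its call in 12 of 20, Abcd2 in 3 of 21, Cyp2a4 in 9 of 27 and Fmo2 in 2 of 27. No male-biased or MUP gene was called in any comparison.

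These lists varied widely between libraries of the same group, as Mup20 did. The median within-group SD was 1.03 for the female-biased, 0.66 for the male-biased and 1.21 for the MUP genes, against 0.26 over all genes. A wide spread was not particular to them, since it was 0.99 for clock genes, 0.62 for the 3 cholangiocyte markers tested and 0.40 for IGF carriers and receptors, and lower for receptor signalling (0.28) and hepatocyte markers (0.22). The summed hepatocyte markers ran from 111413 to 158109 CPM. Kupffer cell and macrophage markers summed to 240 to 943 CPM, and their part in the spread was not tested.

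Of 21 listed MUP genes, 12 were tested. Mup3 was the exception among them, with the lowest within-group SD (0.25) and the highest level. Mup7 ran from 2.47 to 744 CPM, Mup17 from 4.37 to 683 CPM, Mup15 from 26.6 to 992 CPM and Mup11 from 9.61 to 316 CPM. Mup20, at 37.9 to 386 CPM (10.2-fold), had a narrower range than these 4. Mup2, at 4.91 to 27.2 CPM (5.54-fold), and Mup21, at 4.85 to 24.0 CPM (4.95-fold), had narrower ranges than Mup20. All 11 other tested MUP genes shared a larger part of their sequence with other genes than Mup3 did, with 86.7% of the 50-base words of Mup7 and 100% of those of Mup15 found in another gene, so reads may have been split or left out among them.

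**Figure D5:**
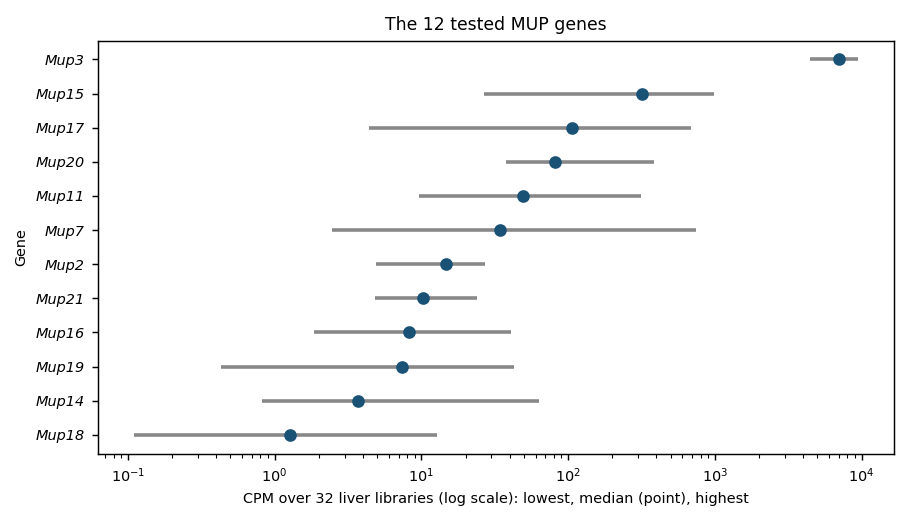
Bars run from the lowest to the highest of 32 liver libraries and points mark the median, in TMM-scaled CPM on a log axis, for the 12 MUP genes that were tested. Mup3 stands highest with the shortest bar, from 4438 to 9484 CPM, and Mup20 lies at 37.9 to 386 CPM.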

How the data were processed

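Counts of reads per gene were deposited by the authors for 42 libraries labelled liver. Per the submitters' processing notes, fastp, STAR, HTSeq 0.6.1, DESeq and STAR-Fusion were used with mm10, and poly(A) RNA was sequenced in paired ends. The strand setting and the treatment of reads matching several genes were not given in the sources used here. Genes averaging 25 or more counts over the liver libraries were tested in edgeR 4.0.16 (R 4.3.3) with TMM scaling, a mean per diet and time over 32 libraries and the default quasi-likelihood test, Benjamini-Hochberg adjusted over all genes (threshold 0.05). DESeq2 1.42.0 was the alternative tool. Pairs were tested with 100000 permutations within groups on log2 CPM (prior count 2). Replicate numbers followed accession order. No replicate pair was a duplicate (lowest chi-square per degree of freedom 14.5). All members were named, with up to 3 called genes by smallest p per list and comparison and the 3 genes of highest correlation per member. Members and lists were chosen with earlier results of these data known. The main edgeR fit and the cosine fit were tested on simulated data.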

Additional observations from a re-analysis of the deposited data

Results flagged for a closer look

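The 10 libraries without the liver marker were in no comparison, and all 8 members had reads there, which is what brought them up. Their median CPM by total count was 853 for Ghr, 270 for Igf1, 34.4 for Igfals, 29.7 for Socs2, 20.1 for Cish, 52.3 for Bcl6, 10.98 for Mup3 and 0.19 for Mup20. In the 32 livers on the same scale the medians were 614, 867, 142, 46.5, 17.6, 18.5, 6823 and 79.2. Mup3 and Mup20 in these 10 libraries lay below every liver (4.61 to 14.5 against at least 4755 CPM, and 0 to 0.37 against at least 36.9 CPM), Igf1 and Igfals were lower in each of them than in any liver, and Ghr, Socs2, Cish and Bcl6 overlapped with liver. No difference was tested, since these libraries stand apart in tissue markers.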

How the results depend on the processing

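With 0 members called in each comparison, the alternatives that gave calls were these. Without a filter on low counts edgeR called 1 member for diet over ZT 0 to ZT 12 (Mup20, adjusted p = 0.0186), 2 for diet by time (Socs2 and Cish), 1 at single times (Socs2 at ZT 8), 2 for time of day in HFD liver (Socs2 and Bcl6), 2 in AIN93G liver (Socs2 and Cish), 1 between ZT 8 and ZT 0 (Socs2) and 1 between HFD night and day (Socs2). Of the 30352 genes tested there, 229 were called for diet over ZT 0 to ZT 12, 96 for diet by time and 175 at ZT 8. For time of day 1734 were called in HFD and 870 in AIN93G liver, with 1570 between ZT 8 and ZT 0 and 985 between night and day. In that setting the SE of Socs2 at ZT 8 was 0.35, against 0.68 with the filter and 0.75 from its spread between libraries. A bias-adjusted quasi-likelihood fit, with and without the filter, chosen after seeing the data, called 0 members. DESeq2 called 1 member, Igfals, for time of day in HFD liver, and leaving out 1 library there gave 0 to 1. Pairs called were 2 in the report, 0 with total-count scaling, 1 without ZT 12 and 0 to 3 with 1 library left out.

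Directions turned only for differences near 0 or of wide interval. With 1 library left out, log2 differences for diet over ZT 0 to ZT 12 ran from -0.032 to 0.053 (Ghr) and -0.004 to 0.064 (Igfals). From ZT 0 to ZT 8 they ran from -0.148 to 0.044 (Igf1), -0.056 to 0.063 (Igfals), -0.134 to 0.678 (Cish), -0.322 to 0.04 (Bcl6) and -0.229 to 0.346 (Mup20, and -0.048 with total-count scaling). For HFD night against day they ran from -0.051 to 0.11 (Igf1), -0.508 to 0.061 (Bcl6), -0.105 to 0.085 (Mup3) and -0.471 to 0.978 (Mup20). The cause was not tested.

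Counts over all genes moved more. Among settings without a block that kept all libraries or left out ZT 12, they ran from 11 to 229 for diet over ZT 0 to ZT 12 (13 in the report), 325 to 1734 for time in HFD (633), 0 to 870 for time in AIN93G (91), 0 to 175 for diet at ZT 8 (2) and 936 to 1693 for the cosine (1023). Without the ZT 12 libraries the counts were 62 for diet over times, 1035 for time in HFD, 434 for time in AIN93G and 1035 for the cosine. Without a filter, diet by time reached 96, ZT 0 51, ZT 4 19 and ZT 12 75 (0 each in the report). With 1 library left out, the ranges were 5 (AIN93G replicate 2 at ZT 12, among others) to 189 (AIN93G replicate 1 at ZT 12) for diet over times, 309 (HFD replicate 3 at ZT 8) to 1164 (HFD replicate 3 at ZT 12) for time in HFD, 12 (AIN93G replicate 2 at ZT 8) to 280 (AIN93G replicate 1 at ZT 12) for time in AIN93G, 0 to 37 (HFD replicate 2 at ZT 8) for ZT 8, 0 to 96 (AIN93G replicate 1 at ZT 12) for ZT 12, 0 to 2 for diet by time, 889 (HFD replicate 3 at ZT 0) to 1370 between ZT 8 and ZT 0, 498 (HFD replicate 2 at ZT 20) to 882 between night and day, and 672 (HFD replicate 2 at ZT 12) to 1710 (HFD replicate 3 at ZT 12) for the cosine. With total-count scaling, 464 of 1276 genes called were higher at ZT 8 (668 of 1344 in the report) and 276 of 774 at night in HFD (383 of 825).

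The number in the sample titles, whose meaning the labels do not give, was entered as a replicate block where liver libraries shared it (6 numbers, 13 libraries), a fit chosen after seeing the data. Of 8 same-numbered pairs, 1 deviated together from the group means with r over 0.1 across genes (r from -0.297 to 0.237), so the numbers were not taken as pairing. With the block, 0 members were called in any comparison. Genes called were 0 for diet over times, 1 at ZT 8, 42 for time in HFD, 3 for time in AIN93G, 925 between ZT 8 and ZT 0, 136 between night and day and 431 for the cosine. Signs turned for diet over times in Ghr (-0.1), Igf1 (-0.055), Igfals (-0.023), Cish (0.122) and Bcl6 (-0.032), for ZT 8 against ZT 0 in Igfals (0.038), Cish (-0.055) and Mup20 (-0.063), and for night against day in Bcl6 (0.268) and Mup3 (0.086). Adjusted p-values past 0.05 were 0.154 (Irs2, time in HFD), 0.0605 (Stat5b), 0.0579 (Igfbp4) and 0.0774 (Ntrk2) between ZT 8 and ZT 0, 0.254 (Abcd2), 0.15 (Cyp2a4) and 0.14 (Fmo2).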
